A study of Picea abies with 40 samples.

Results

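Stele 1 was the first of the central cylinders cut by laser from sections of Norway spruce (Picea abies) seedling roots, and it is set here against the QC area of the same kind of root. The comparison rests on 8 libraries, 4 of stele 1 and 4 of the QC area, chosen by their labels out of 40 in the series. Genes that differed between both regions were then followed in 4 libraries each of ground tissue, stele 2 and stele 3, and in 5 libraries from each of 4 zones, which are whole root pieces numbered from the tip (3 of 1 mm and 1 of 2 mm in the design text). The seedlings had grown on plates for about 2 days after germination, and no genotype, treatment or age beyond this sets the groups apart. Laser-cut regions and zones went through different RNA extractions (RNAqueous-Micro for the former, chloroform and RNeasy columns for the latter), so no captured library was compared with a zone library.

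A root of a seed plant grows from a meristem at its tip, where a small centre of rarely dividing cells, the quiescent centre, is surrounded by the initials of each tissue. Behind it the daughter cells elongate and then differentiate. Those along the axis form the stele, the cylinder that matures into xylem, which moves water, and phloem, which moves sugars, while the ground tissue around it forms the cortex and its inner layer. The labels write QC without spelling it out, and although the design text puts the steles where the root elongates and differentiates, it does not say which number lies where.

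The captured libraries held 4936950 to 11991554 counts and the zone libraries 3534236 to 7254284. Stele 1 had 4936950 counts in replicate 1 and 7426077 to 8659506 in the others, against 8588293 to 9341358 in the QC area. The 4 QC area libraries were sequenced in lane 8, whereas stele 1 replicates 1 and 2 came from lane 7 and replicates 3 and 4 from lane 8. Between libraries stele 1 was more variable than the QC area, with a biological coefficient of variation of 47.8% where that of the QC area was 36%. The spread behind the calls was estimated from all 5 captured regions together. This coefficient was highest for stele 2 (69%), followed by stele 3 (55.7%), and lowest for ground tissue (31.4%). Whether the libraries of 1 region stand for different seedlings is not stated in the labels. The p-values therefore measure this shared spread between libraries, which may be technical. The gene IDs carry no names in the files, so no marker of a cell type could be read and the labelled regions could not be checked against their defining genes. Genes are given by ID, and no sequence is shown.

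Far more genes were higher in stele 1 than lower. The test covered 27239 genes and called 2293 higher in stele 1 (8.42%) and 281 lower (1.03%), together 9.45% (edgeR quasi-likelihood, Benjamini-Hochberg adjusted p under 0.05). The higher genes are called risen below and the lower genes fallen, both as seen from the QC area. The fitted change was above 0 for 53.3% of all tested genes, called or not. Without adjustment, 4294 genes were higher and 1085 lower at a p under 0.05.

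The risen genes had a median log2 fold change of 2.07, with the middle of the set between 1.20 and 4.01, and the fallen genes one of -2.34, between -3.76 and -1.32. Over all tested genes the median was 0.05. The median of the risen genes was lower under some of the settings given below. The risen genes had a median level of 4.03 CPM (counts scaled to a common library size by TMM) in the QC area and 18.4 CPM in stele 1. The fallen genes were at 20.02 CPM in the QC area and 3.88 CPM in stele 1. These levels chose the genes and describe them only. A change of at least 8-fold was found for 779 of the 2293 risen genes (34.0%) and for 104 of the 281 fallen genes (37.0%), when genes without a count in the lower group were set to a bound of 3 counts over that group. The QC area had no count at all for 204 risen genes, and stele 1 had none for 15 fallen genes. With these genes at their bounds, the medians were 2.06 and -2.34. In bulk tissue, fewer cells of a type and less RNA per cell cannot be told apart.

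**Figure D1:**
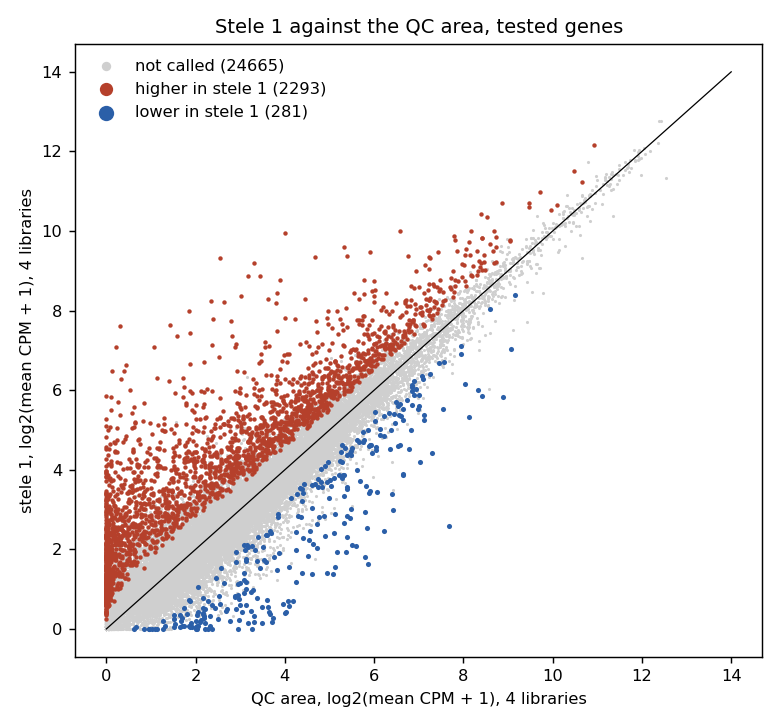
Each point is 1 of 27239 tested genes, with its mean level over 4 QC area libraries on the x axis and over 4 stele 1 libraries on the y axis, both as log2(CPM + 1). The 2293 genes higher in stele 1 lie above the diagonal in red and the 281 lower genes below it in blue, and many red points stand at the left edge, where the QC area had few or no counts.

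The number of calls differed between settings. When the fit held no other region, which changed the scaling, the filter and the spread together and left 2084 of the 2574 called genes to be tested, the calls were 1405 higher and 662 lower, which put the higher share at 68.0% in place of 89.1%. Of these, 1331 and 243 were among the risen and fallen genes. Over the 2084 genes left, the median log2 fold change in that fit was 1.55 for risen and -2.25 for fallen genes. DESeq2 called 2508 higher and 721 lower genes (77.7% higher). Within lane 8, which held 2 libraries of stele 1 and 4 of the QC area, the calls were 573 higher and 191 lower (75% higher), and 551 and 123 of them were risen and fallen genes. The fit within lane 8 also held that lane's ground tissue and stele 3 libraries, which shared its filter, scaling and spread. Over the 2556 risen and fallen genes with a value there, the median log2 fold changes were 1.53 and -2.21. Lane 7 held no QC area library. With lane as a covariate the counts were 1493 and 157. More risen than fallen genes were found under each of these settings, but the size of the imbalance ranged from 68.0% to 90.5% higher.

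Stele 1 was not 1 uniform profile. The median log2(CPM + 1) of the risen genes was 4.81 in replicate 1, 4.24 in replicate 2, 3.35 in replicate 3 and 4.18 in replicate 4, against 2.12 to 2.39 in the QC area libraries. Replicate 3 thus lay nearest to the QC area and replicate 1 farthest, and both lane 7 libraries (replicates 1 and 2) lay above both lane 8 libraries (replicates 3 and 4). By the share of counts that the risen genes took, however, replicate 4 of lane 8 (17.0%) lay above replicate 2 of lane 7 (16.1%). The same held for the median log2 change of the risen genes from the QC area mean, at 1.40 in replicate 4 and 1.38 in replicate 2. The part of lane in this spread was not tested. Replicate 3 was the lowest stele 1 library for 1832 of the 2293 risen genes (79.9%) and replicate 1 the highest for 1514 (66.0%). The fallen genes had medians of 1.74, 2.19, 2.80 and 1.78 in replicates 1 to 4 against 4.27 to 4.40 in the QC area. Replicate 3 was again nearest to the QC area and replicate 1 farthest. The lane order did not hold in these medians, as replicate 4 lay farther from the QC area than replicate 2. By the median log2 change from the QC area mean it held narrowly, at -1.70 in replicate 2 and -1.68 in replicate 4. Replicate 3 held the highest stele 1 level for 169 of the 281 fallen genes (60.1%).

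Counted against the QC area, 2254, 2261 and 2261 risen genes lay above all 4 QC area libraries in stele 1 replicates 1, 2 and 4, but 1820 (79.4%) did so in replicate 3. Stele 1 and QC area libraries did not overlap for 1743 risen genes (76.0%) and 264 fallen genes (94.0%). Among all tested genes the libraries did not overlap with stele 1 above for 10% and with stele 1 below for 6.05%. The rule that called the genes used the same libraries, so these shares are descriptions. Leaving out replicate 3 raised the calls to 2733 higher and 371 lower genes. Leaving out another library lowered them. The lowest number of risen genes was 1467, without QC area replicate 3, and the number of fallen genes fell to 131 to 153 without stele 1 replicate 1, 2 or 4 and to 168 to 184 without any 1 of the 4 QC area libraries.

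The risen genes took 6.59% to 7.42% of the counts of the QC area libraries and 11.1% to 22.3% in stele 1. The libraries of the other captured regions entered the choice of genes through the shared scaling, filter and estimate of the spread. With no other region in the fit, 2084 of the 2574 called genes were left to be tested. The filter thus bears on the shares and levels in those regions, and none were computed without the genes it let in. The risen genes took 9.78% to 11.9% in ground tissue, 29.9% to 39.2% in stele 2 and 40.03% to 43.6% in stele 3. The highest ground tissue library therefore lay above the lowest stele 1 library, and stele 2 and stele 3 did not overlap with any other captured group. The fallen genes took 1.48% to 1.55% in the QC area, 0.615% to 0.884% in ground tissue, 0.375% to 0.691% in stele 1, 0.291% to 0.323% in stele 2 and 0.333% to 0.401% in stele 3. Ground tissue and stele 1 overlapped here too.

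The median level of the risen set was lowest in the QC area, whose libraries chose the genes, and highest in stele 3. The median of the group means was 4.03 CPM for the QC area, 7.20 CPM for ground tissue, and 18.4, 42.1 and 46.3 CPM for steles 1, 2 and 3. Stele 1 was the group with the highest mean for 138 risen genes (6.02%), whereas stele 3 was highest for 1357 (59.2%), stele 2 for 766 (33.4%) and ground tissue for 32 (1.40%). Over all tested genes the shares were 11.7% for stele 1, 30.6% for stele 3, 14.9% for stele 2 and 18.8% for ground tissue. The lowest mean lay in the QC area for 1809 risen genes (78.9%) and in ground tissue for 441 (19.2%), beside 24.1% and 17.7% of all tested genes. The choice of genes bears on the QC area share and, through the shared filter, on the shares with the highest mean in steles 2 and 3. The share with the lowest mean in ground tissue was near that of all genes. The fallen set ran from 20.02 CPM in the QC area through ground tissue at 7.78 CPM to 3.88, 2.76 and 3.04 CPM in steles 1, 2 and 3. The QC area had the highest mean for 229 of the 281 fallen genes (81.5%), stele 3 for 29 (10.3%) and ground tissue for 22 (7.83%). Over all tested genes these shares were 24%, 30.6% and 18.8%. The fallen genes were chosen for being higher in the QC area than in stele 1, which bears on the QC area share.

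**Figure D2:**
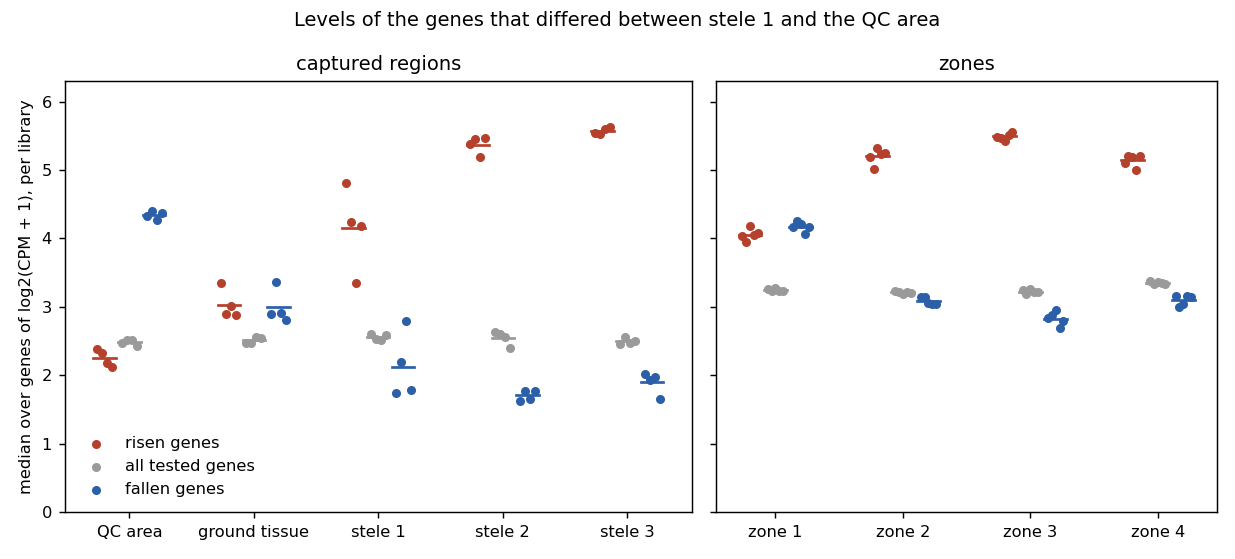
Each point is the median over genes of log2(CPM + 1) in 1 library, for the 2293 risen, the 281 fallen and all tested genes, and bars are the means over the 4 captured or 5 zone libraries of a group. The risen genes lie lowest in the QC area, spread from 3.35 to 4.81 in stele 1 and stand above 5 in steles 2 and 3, while in the zones, with 2154 risen and 226 fallen genes tested, they are lowest in zone 1.

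Other captured comparisons share libraries with the one that chose the genes, so their values are set side by side with no test of likeness. Ground tissue against the QC area, which shares the QC area libraries, had a median log2 fold change of 0.72 over the risen genes and of -1.27 over the fallen genes, with 0.01 over all tested genes. Stele 1 against ground tissue, which shares the stele 1 libraries, had 0.96 and -0.75, with 0.03 over all genes. Stele 2 against stele 1 had 1.04 and -0.68, with -0.05 over all genes. Stele 3 against stele 1 had 1.25 and -0.66, with -0.21 over all genes. The choice of genes by the QC area and stele 1 libraries bears on the sign and size of each of these medians, so nothing is read from them.

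Stele 2 against ground tissue asked whether the risen genes were raised in another stele over tissue outside it. Its contrast uses no stele 1 or QC area library, but the libraries of all 5 captured regions shared the fit that called the risen and fallen genes. Of the 2293 risen genes 1975 (86.1%) were higher in stele 2 and 10 (0.436%) lower, whereas 22.3% of all tested genes were higher and 15.2% lower, 37.5% in either direction (edgeR adjusted p under 0.05). Their median log2 fold change was 2.22, against -0.04 over all tested genes. Of the 281 fallen genes 158 (56.2%) were lower in stele 2 and 12 (4.27%) higher, with a median of -1.53. Of the 1405 higher and 662 lower genes called with no other region in the fit, 84.7% of the former were higher and 54.7% of the latter lower in stele 2 than in ground tissue. When stele 1 and the QC area were left out of the fit that followed the genes, 1910 risen genes were higher and 9 lower, and 105 fallen genes were lower and 8 higher. The stele 2 libraries all came from lane 7 and 3 of the 4 ground tissue libraries from lane 8. With lane as a covariate the counts were 1694 and 5 for the risen genes and 123 and 6 for the fallen genes.

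A smaller part of the risen genes was not set apart from ground tissue in this way. For 308 of them stele 2 and ground tissue did not differ past the threshold. These had median levels of 4.48 CPM in the QC area, 14.6 CPM in ground tissue, 16.6 CPM in stele 1, 20.6 CPM in stele 2 and 15.5 CPM in stele 3; the choice of these genes fixes the low QC area level and bears on the likeness of stele 2 and ground tissue. The 1975 genes raised in stele 2 had 3.94, 6.33, 18.5, 48.1 and 57.4 CPM in the same order. The 10 risen genes that were lower in stele 2 had their highest median, 81.3 CPM, in ground tissue. The 12 fallen genes that were higher in stele 2 had a median of 9.42 CPM in the QC area, 0.837 CPM in stele 1 and 34.2 CPM in stele 3.

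Between stele 3 and stele 2, the share of risen genes called was near that of all tested genes. Of the risen genes, 154 (6.72%) were higher in stele 3 and 129 (5.63%) lower, against 3.85% and 9.16% of all tested genes (13% in either direction), and 87.7% were not called, beside 87% of all tested genes. The median log2 fold change was 0.19 over the risen genes and -0.11 over all tested genes. Which side held more risen genes depended on the scaling, the filter and single libraries. Total counts gave 96 higher and 243 lower, DESeq2's size factors 212 and 108, and no filter on low counts 109 and 123. DESeq2 called 315 higher and 152 lower. Leaving out single libraries moved the number of higher genes to between 75 and 179. More risen genes were lower than higher without stele 2 replicate 1 (98 higher, 120 lower) or replicate 3 (75 and 106). The same held without stele 3 replicate 3 (92 and 95) or replicate 4 (100 and 107). Without any other single library of steles 2 and 3, more were higher than lower. Of the fallen genes 29 (10.3%) were higher and 19 (6.76%) lower.

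The zones gave a view of the same genes in separate libraries made from whole root pieces. The zone table held enough counts to test 2154 of the 2293 risen and 226 of the 281 fallen genes. The 139 risen genes left out had a median of 2.38 CPM in stele 1, and 23 of them had no count in any zone library. From zone 1 to zone 2, 1880 risen genes (87.3%) were higher and 25 (1.16%) lower, whereas 28.1% and 27.6% of all tested genes were, 55.7% in either direction (edgeR adjusted p under 0.05). The rise was of at least 2-fold for 1117 of them. Their median log2 fold change was 1.05, against 0.02 over all tested genes. The fallen genes went the other way, with 170 of 226 (75.2%) lower in zone 2 and 17 (7.52%) higher, and a median of -1.19. Zone 2 thus differed from zone 1 in the same direction as stele 1 from the QC area for most tested genes of either set.

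Beyond zone 2, more risen genes were higher than lower in zone 3, and more were lower than higher in zone 4. From zone 2 to zone 3, 908 of them (42.2%) were higher and 338 (15.7%) lower, beside 26.2% and 25.8% of all tested genes (52% in either direction), with a median log2 fold change of 0.22. From zone 3 to zone 4, 385 (17.9%) were higher and 1055 (49.0%) lower, beside 26.1% and 22.8% (48.9% in either direction), with a median of -0.34. With total counts the step to zone 3 had 790 higher and 451 lower genes and the step to zone 4 470 and 951. These counts leave aside that the replicate numbers of zones 2 and 3 were treated as pairs. With a replicate block the step to zone 3 had 928 higher and 333 lower risen genes. The risen genes took 12.7% to 13.8% of the counts in zone 1 libraries, 23.3% to 27.3% in zone 2, 29.1% to 31.2% in zone 3 and 22.9% to 24.95% in zone 4. Zone 1 lay below and zone 3 above all other zone libraries, and zones 2 and 4 overlapped. The fallen genes reached their lowest median level, 6.32 CPM, in zone 3, against 17.3 CPM in zone 1, 7.61 CPM in zone 2 and 7.52 CPM in zone 4. Of 226 fallen genes, 83 (36.7%) were higher in zone 4 than in zone 3 and 48 (21.2%) lower. From zone 2 to zone 3, 56 (24.8%) were higher and 76 (33.6%) lower.

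**Figure D3:**
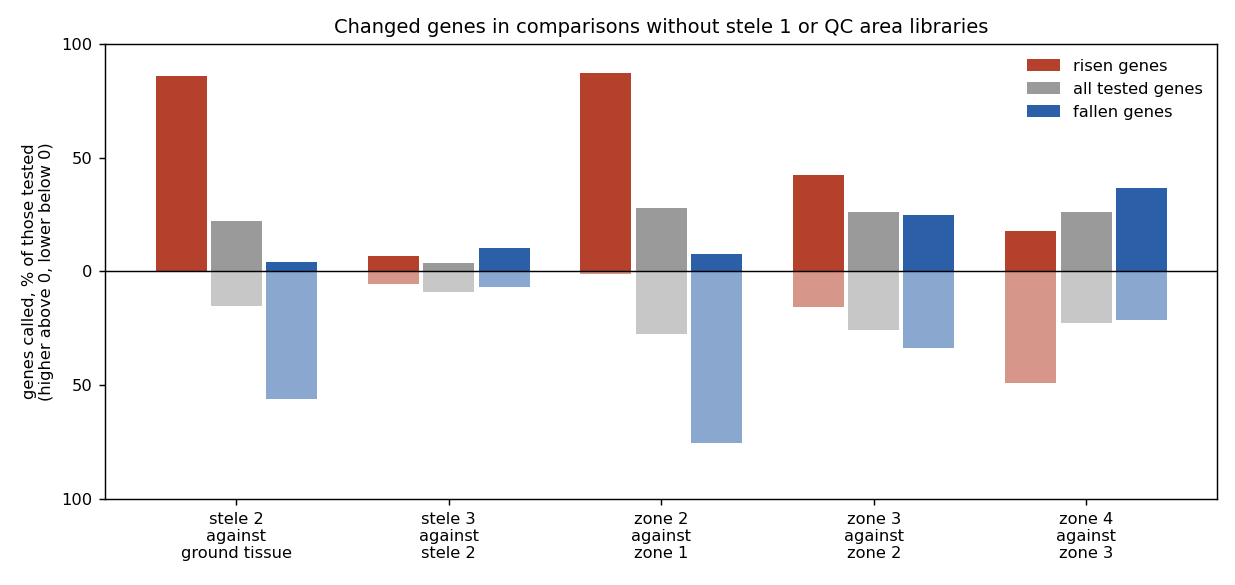
Bars give the percent of tested genes called higher (above 0) or lower (below 0) in 5 comparisons whose contrast uses no stele 1 or QC area library, for the risen genes (red), all tested genes (grey) and the fallen genes (blue). The risen bars reach 86.1% higher in stele 2 over ground tissue and 87.3% in zone 2 over zone 1, and in zone 4 against zone 3 the longer red bar, 49.0%, points down.

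Over the whole sampled root, zone 4 against zone 1, 1447 of 2154 risen genes (67.2%) were higher and 335 (15.6%) lower, beside 40.6% and 37.5% of all tested genes (78.2% in either direction). Zone 3 held the highest mean of 878 risen genes (40.8%), zone 4 that of 633 (29.4%), zone 2 that of 602 (27.9%) and zone 1 that of 41 (1.90%). Over all tested genes the shares were 18.7% for zone 3, 33.2% for zone 4, 11.9% for zone 2 and 36.3% for zone 1, so the zone 4 share of the risen genes lay slightly below that of all genes. The 335 risen genes that were lower in zone 4 are described by their levels in the captured regions. Their median level was 15.4 CPM in the QC area, 28.6 CPM in ground tissue, 45.3 CPM in stele 1, 67.5 CPM in stele 2 and 49.0 CPM in stele 3. Among the zones, their median level was highest in zone 2, at 77.4 CPM. The 1447 genes higher in zone 4 started from 2.84 CPM in the QC area and went on from 15.8 CPM in stele 1 to 43.3 and 57.7 CPM in steles 2 and 3. Of the 226 fallen genes 142 (62.8%) were lower in zone 4 than in zone 1 and 54 (23.9%) higher.

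Single genes show these courses library by library. Those with the largest difference in mean CPM were MA_10427661g0030 and MA_6359g0010 on the higher side and MA_25199g0020 and MA_14309g0010 on the lower side. CPM values are not divided by gene length, so this choice favours long and abundant transcripts, and levels are compared within a gene only.

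MA_10427661g0030 had 1491, 1427, 1409 and 1336 CPM in QC area replicates 1 to 4 and 2790, 3019, 2160 and 3700 CPM in stele 1. Every stele 1 library lay above every QC area library, which the choice required, with replicate 3 the lowest. The log2 fold change was 1.04 ± 0.16 (SE), at an edgeR adjusted p of 0.000258. Ground tissue lay between, at 1882 to 2266 CPM, overlapping the lowest stele 1 library, while stele 2 had 4572 to 6453 CPM and stele 3 4430 to 5571 CPM. It was higher in stele 2 than in ground tissue by 1.42 ± 0.16 (SE) on the log2 scale, at an edgeR adjusted p of 2.06e-06. In the zones it had 1333 ± 76.9 CPM in zone 1, 2834 ± 269 CPM in zone 2, 3246 ± 208 CPM in zone 3 and 1974 ± 255 CPM in zone 4 (SD, n = 5 each). The fall from zone 3 to zone 4 was -0.72 ± 0.09 on the log2 scale (SE, edgeR adjusted p = 5.01e-07).

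MA_6359g0010 had 498, 458, 439 and 461 CPM in the QC area and 1604, 2031, 1029 and 2000 CPM in stele 1 replicates 1 to 4, 1.84 ± 0.20 (SE) on the log2 scale, at an edgeR adjusted p of 2.26e-05. Replicate 3 was again the lowest stele 1 library. Ground tissue, at 961 to 1556 CPM, overlapped stele 1 and lay above the QC area. Stele 2 had 2068 to 2861 CPM, above every stele 1 library, and stele 3 had 1756 to 2163 CPM. Along the root it went from 1425 ± 138 CPM in zone 1 to 2050 ± 127 CPM in zone 2 (SD, n = 5 each) and then fell to 522 ± 50.1 CPM (SD, n = 5) in zone 4. Zone 4 was lower than zone 1 by -1.45 ± 0.10 (SE) on the log2 scale, at an edgeR adjusted p of 4.89e-12.

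MA_25199g0020 had 751, 334, 327 and 476 CPM in the QC area and 77.2, 42.2, 88.0 and 17.1 CPM in stele 1 replicates 1 to 4. The groups did not overlap, which the choice required, and the log2 fold change was -3.07 ± 0.67 (SE), at an edgeR adjusted p of 0.00636. Within lane 8 alone it was -3.20 ± 0.88 and missed the threshold (SE, edgeR adjusted p = 0.0871). Ground tissue, at 13.5 to 79.5 CPM, covered much the same range as stele 1. Stele 2 libraries held 16 counts in all and stele 3 libraries none. In the zones the gene had 12.6 ± 1.76 CPM in zone 1 (SD, n = 5) and at most 2.11 CPM in any library of zones 2 to 4.

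MA_14309g0010 had 459, 487, 558 and 637 CPM in the QC area and 79.9, 91.1, 259 and 92.8 CPM in stele 1 replicates 1 to 4, -2.03 ± 0.51 (SE) on the log2 scale, at an edgeR adjusted p of 0.0136. Replicate 3 stood apart in stele 1, on the QC area side. Without stele 1 replicate 1, 2 or 4 the value was -1.85 to -1.89 and missed the threshold, with adjusted p of 0.0534 to 0.0541, and without replicate 3 it was -2.60. Ground tissue held 216 to 378 CPM, below every QC area library and overlapping stele 1. Stele 2 held 3.75 to 15.4 CPM and stele 3 0 to 5.10 CPM, lower than stele 2 (edgeR adjusted p = 0.0171). In the zones it fell from 109 ± 12.8 CPM in zone 1 to 4.77 ± 2.33 CPM in zone 2 (SD, n = 5 each), -4.54 ± 0.21 (SE) on the log2 scale, at an edgeR adjusted p of 1.15e-13.

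Among the risen genes, MA_239561g0010 had the largest rise from zone 1 to zone 4 of those fit to be named. It had 2 counts in the whole QC area and 49.7, 32.7, 0.410 and 13.2 CPM in stele 1 replicates 1 to 4, where replicate 3 held 4 counts. Stele 1 over the QC area was a ratio of 412, for which counting error alone allows 114 to 3410 at 95% (edgeR adjusted p = 0.000109). Ground tissue had 0.358 to 1.58 CPM, stele 2 286 to 866 CPM and stele 3 1971 to 3565 CPM, so the stele libraries lay in numerical order without overlap, although stele 3 against stele 2 missed the threshold (edgeR adjusted p = 0.0647). In the zones it went from 2.75 ± 1.64 CPM in zone 1 through 144 ± 49.96 CPM in zone 2 to 615 ± 111 CPM in zone 3, and was at 409 ± 56.4 CPM in zone 4 (SD, n = 5 each). Zone 4 over zone 1 was 7.21 ± 0.31 (SE) on the log2 scale, at an edgeR adjusted p of 1.26e-15. This contrast chose the gene, so these values describe it only.

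MA_44185g0010 was the risen gene with the strongest fall from zone 1 to zone 4 of those fit to be named. It had 4.97 to 7.06 CPM in the QC area and 200, 132, 50.8 and 153 CPM in stele 1 replicates 1 to 4, 4.38 ± 0.60 (SE) on the log2 scale, at an edgeR adjusted p of 0.00011. Ground tissue, at 76.6 to 140 CPM, overlapped stele 1, and stele 2 had 140 to 222 CPM. In stele 3 it was back at 0.203 to 18.1 CPM, lower than stele 2 by -4.46 ± 0.61 (SE) on the log2 scale, at an edgeR adjusted p of 0.000214. The zones had 108 ± 6.53 CPM in zone 1, 149 ± 21.3 CPM in zone 2, 21.5 ± 22.3 CPM in zone 3 and 1.77 ± 0.677 CPM in zone 4 (SD, n = 5 each). In zone 3 replicate 2 had 60.3 CPM and the others at most 18.7 CPM.

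The fallen genes held both courses as well. MA_94570g0010 had 46.3 to 71.7 CPM in the QC area and 9.55, 12.4, 12.7 and 3.78 CPM in stele 1 replicates 1 to 4, -2.59 ± 0.45 (SE) on the log2 scale, at an edgeR adjusted p of 0.00089. Ground tissue was as low as stele 1, at 4.99 to 13.0 CPM, but stele 2 had 72.4 to 266 CPM and stele 3 134 to 416 CPM, above every QC area library. Stele 2 was higher than ground tissue by 4.09 ± 0.48 (SE) on the log2 scale, at an edgeR adjusted p of 3.59e-06. In the zones it was lowest in zone 1, at 2.92 ± 0.931 CPM. It reached 20.9 ± 4.96 CPM in zone 2 and 43.4 ± 3.67 CPM in zone 4 (SD, n = 5 each). Zone 4 over zone 1 was 3.92 ± 0.19 (SE) on the log2 scale, at an edgeR adjusted p of 9.6e-15. The gene was named for the largest such rise among the fallen genes fit to be named, so these values describe it only.

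MA_38303g0010 had 168, 214, 195 and 239 CPM in the QC area and 1.36, 9.84, 8.10 and 0.853 CPM in stele 1 replicates 1 to 4, -5.31 ± 0.73 (SE) on the log2 scale, at an edgeR adjusted p of 0.000426. In stele 1 the libraries of replicates 2 and 3, from different lanes, were the higher ones. Ground tissue had 31.0 CPM in replicate 2 and 6.20 to 9.76 CPM in the others, and no count was found in any library of stele 2 or stele 3. In the zones the 5 libraries of zone 1 had 38.5 to 51.5 CPM, and zone 2 held 1 count in all. Zone 1 was thus higher by a ratio of 1090 (edgeR adjusted p = 1.92e-15). For this ratio counting error alone allows 195 to 43100 at 95%. The gene was named for its fall from zone 1 to zone 4, so the zone 1 libraries bear on its choice.

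**Figure D4:**
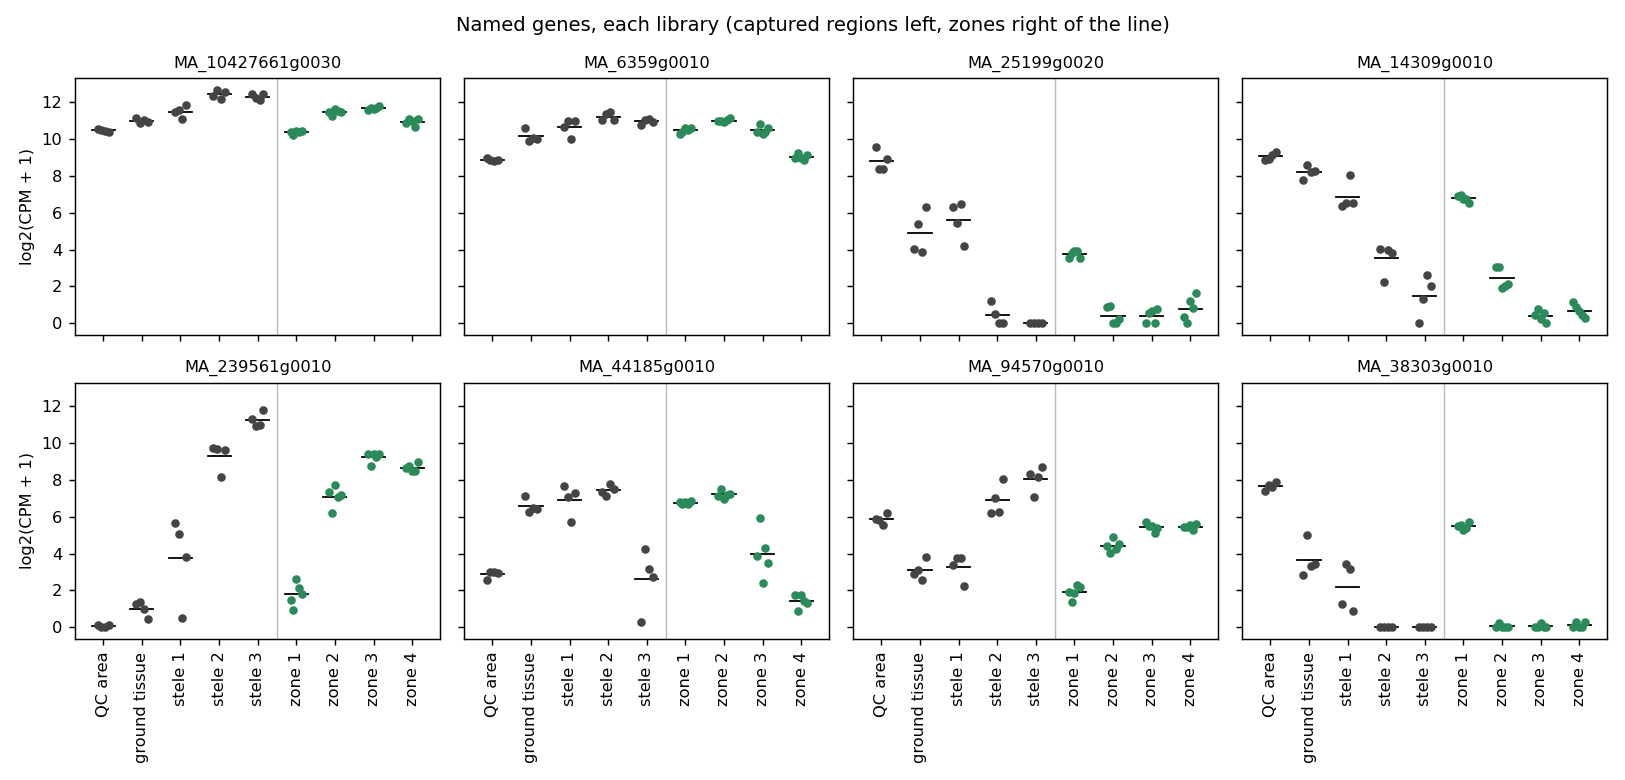
Each point is log2(CPM + 1) of a named gene in 1 library, with the 5 captured groups left and the 4 zones right of the line, and bars are group means on the same scale. The upper row holds the 4 genes with the largest differences in mean CPM and the lower row the 4 followed genes, of which MA_44185g0010 drops in stele 3 and zone 4 and MA_94570g0010 is low in ground tissue, stele 1 and zone 1.

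The gene IDs begin with the number of the genome scaffold, and called genes rarely sat on a scaffold together. The 2293 risen genes lay on 2231 scaffolds, of which 60 held 2 or more (122 genes, 5.32% of the set). The 281 fallen genes lay on 281 scaffolds, and no scaffold held both a risen and a fallen gene. Of all 27239 tested genes 9.75% shared a scaffold with another tested gene, a share that grows with the size of a set, so the values stand as descriptions.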

How the data were processed

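The authors deposited raw read counts per gene, whole numbers, in 1 table of 20 captured libraries and 1 table of 20 zone libraries, each with 70736 gene IDs. Trimmomatic, STAR and HTSeq were used per the submitters' processing notes. No source used here gives their versions, the genome build, the annotation or the strandedness, so overlapping and antisense genes, and near-identical copies, cannot be told apart. Stele columns of the captured table carry no region name and were assigned by elimination. No sequence or gene name table was used.

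Each table was analysed with edgeR 4.0.16 in R 4.3.3, with filterByExpr (27239 captured and 27767 zone genes tested), TMM scaling, glmQLFit on all groups and glmQLFTest with Benjamini-Hochberg adjustment over all tested genes at 0.05. CPM values are TMM-scaled, and the SE is the log2 fold change divided by the square root of F. A fold against a group without counts uses a floor of 3 counts over the group; ratios resting on 1 to 3 counts have exact binomial 95% intervals, and both cover counting error only. DESeq2 1.42.0 was an alternative, as were other scalings and filters, lane, and left-out libraries. The procedure was also run on simulated counts, which had the same spread in every group. The captured regions differed in spread, so that run does not bear on the use of a shared spread.

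Named genes are the 2 higher and 2 lower called genes with the largest difference of mean CPM and no overlap between libraries, and, with at least 10 CPM and no overlap in either comparison, the risen and the fallen gene with the largest and the smallest change of zone 4 against zone 1. Members and lists were chosen with earlier results of these data known. Lists by product name could not be applied, as the IDs carry no names.

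Replicates of a group differed by more than sampling noise (smallest chi-square per gene 5.61 in captured and 1.90 in zone libraries). Replicate numbers were checked as pairs by correlating deviations from group means. For stele 1 and the QC area the 4 correlations ran from -0.087 to 0.20, so they were not taken as pairs. For zones 2 and 3 the 5 correlations, from 0.215 to 0.479, were all above 0.1, so these numbers were treated as pairs. For zones 4 and 3 they ran from -0.0432 to 0.182. Whether zone libraries with the same number share roots was not tested.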

Additional observations from a re-analysis of the deposited data

Results flagged for a closer look

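Within groups of 4 or 5 libraries, 7 of 108 groups examined held a library far from the others, and chance flags about 1 in 20. Stele 1 replicate 3 had 259 CPM of MA_14309g0010 and the other stele 1 libraries 79.9 to 92.8 CPM. This library was also nearest to the QC area over the risen genes. Stele 2 replicate 3 had 286 CPM of MA_239561g0010, against 778 to 866 CPM in the others. Ground tissue replicate 2, the ground tissue library of lane 7, had 31.0 CPM of MA_38303g0010, against 6.20 to 9.76 CPM. QC area replicate 1 had 4.97 CPM of MA_44185g0010, against 6.71 to 7.06 CPM, and zone 3 replicate 2 had 60.3 CPM, against 4.28 to 18.7 CPM. MA_38303g0010 was at 0.179 CPM in zone 2 replicate 2 and 0.186 CPM in zone 3 replicate 3, each resting on 1 count, with no count in the other libraries of those zones.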

How the results depend on the processing

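No named gene changed sign in the 127 values that the alternatives gave, which do not cover every gene under every setting. Of 354 counts, 43 moved by over 1.5 times, and the cause was not tested unless given. Stele 1 against the QC area had 1405 higher and 662 lower genes with no other region in the fit, 1493 and 157 with lane as a covariate, 573 higher within lane 8 (fewer libraries) and 721 lower with DESeq2. Leaving out single libraries gave 1467 to 2733 higher and 131 to 371 lower genes. Median change of all genes was 0.0535 with TMM, -0.0553 with DESeq2's size factors and -0.0611 with total counts (log2). A replicate block gave 2127 higher and 265 lower genes, and 928 and 333 risen genes in zones 3 and 2, which were taken as paired, and changed no other count by over 1.5 times.

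Requiring 2-fold left, of risen genes, 4 lower in stele 2 against ground tissue, 85 lower in stele 3 against stele 2, 1117 higher and 4 lower in zone 2 against zone 1, 383 and 83 in zone 3 against zone 2, and 136 and 476 in zone 4 against zone 3. Of fallen genes it left 8 higher in zone 2, 28 higher and 49 lower in zone 3, and 55 and 27 in zone 4. In stele 3 against stele 2, total counts turned the balance of risen genes to 96 higher and 243 lower and gave 32 lower fallen genes. DESeq2 gave 315 higher risen genes, and leaving out libraries 75 to 179. The balance also turned with no filter on low counts and without stele 2 replicate 1 or 3 or stele 3 replicate 3 or 4. In stele 2 against ground tissue the lane covariate gave 5 lower risen and 6 higher fallen genes, and leaving out libraries 6 to 11 lower risen genes, with 16 to 23 in zone 2. With stele 1 and the QC area out of the fit, a choice made after seeing the data, 105 fallen genes were lower in stele 2 and 17 higher in stele 3. Members called with no other region in the fit, also chosen after seeing the data, gave 84.7% of 1405 risen genes higher in stele 2 than in ground tissue and 86.6% of 1361 in zone 2. The QC area had no count for 204 risen genes, and the part of depth in this was not tested.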
